A study of Mus musculus with 2 samples.

Results

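The 7 genes C1ra, C1s1, C3, C4b, C7, Cfb and Serping1 encode proteins of the complement system, and they were followed as complement genes made by fibroblasts of the mouse lung. They were found by symbol among 32285 genes, each of the 7 matching 1 gene in both libraries, and were described across cell clusters of mesenchymal cells sorted from bleomycin-treated and saline-treated mice. Complement is a cascade of plasma proteases that tags surfaces for removal, attracts leukocytes and can perforate membranes. The classical branch starts with C1, in which the proteases C1r and C1s are activated and cleave C4 and C2. The alternative branch is built from C3 and factor B, and all branches meet at C3. The terminal proteins, C7 among them, assemble into the membrane attack complex, and C1 inhibitor, the product of Serping1, blocks C1r and C1s. The liver makes most circulating complement, while fibroblasts and other stromal cells are known local sources in many tissues.

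The bleomycin group was 1 library of live tdTomato-positive lung cells from mice of the genotype Lepr-CreERT2;Rosa26-tdtomato, 8 to 10 weeks old and given bleomycin, a drug used to model lung fibrosis. The saline group was 1 library of the same sort from mice of that genotype and age given saline. Both groups thus carry a tamoxifen-inducible Cre driven by the leptin receptor gene Lepr, so only cells that had used that gene and their descendants are marked, and cells staining for CD45, EpCAM or CD31 were gated out. The sources used here do not give the number of mice, the bleomycin dose or the day of collection. With 1 library per group there is no replicate and no test of the treatment: values are in CPM, the UMIs (unique transcript molecules) of a gene scaled to the UMIs of the same cells, brackets hold 95% intervals that cover counting error only, and a ratio is always bleomycin over saline. The size rule asked that levels in the 2 libraries lay at least 2-fold apart, that the higher one was 10 CPM or more, and that the counting interval of their ratio did not include 1.

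The bleomycin library held 10138 barcodes and 134732429 UMIs with a median of 11662 UMIs, and the saline library held 8396 barcodes and 60937359 UMIs with a median of 6762. The 2 libraries shared 25 cell barcodes. After filtering, 9999 bleomycin and 8269 saline cells fell into 13 clusters, which were formed with all 57 complement genes left out, so that the levels below were not used to make them. From marker lists, clusters were called inflammatory fibroblast-like (leading genes Saa3, Hp and Lcn2, 3741 bleomycin and 111 saline cells), fibrotic fibroblast-like (Spp1, Thbs4 and Cthrc1, 2727 and 20), alveolar fibroblast-like (an Slc7a10 cluster with 76 and 2489 and an Inmt cluster with 208 and 3130) and adventitial fibroblast-like (a Pi16 cluster with 703 and 459 and an Adh7 cluster with 430 and 998). Of 12 alveolar markers, 12 were raised in the Slc7a10 cluster and 8 in the Inmt cluster. Of 12 adventitial markers, 10 were raised in the Pi16 cluster but only 6 in the Adh7 cluster, whose name is thus the weaker. Further clusters were smooth muscle-like (Myh11, Actc1 and Pcp4l1, 533 and 358), proliferating cell-like (Ube2c, Birc5 and Top2a, 571 and 52) and mesothelial cell-like (Msln, Slurp1 and Upk3b, 116 and 42). A cluster that matched both the peribronchial and the smooth muscle list (Cnn1, Aspn and Pappa2, 591 and 405) and one led by interferon-induced genes (Cxcl9, Rsad2 and Ifit3, 45 and 79) stay unnamed. A cluster of epithelial genes (Scgb1a1, Sftpc and Ager, 188 and 108), cells the gate should have removed, was set beside the shares of cells with a UMI. It is no clean measure of free RNA, since lung epithelial cells are known to make some complement proteins, C3 among them. A cluster of immunoglobulin and macrophage genes (70 and 18) and the mesothelial and epithelial ones were left out of the mesenchymal totals, which held 9625 bleomycin and 8101 saline cells. Most cells of a treatment lay in clusters that the other treatment nearly lacked, so a level over all mesenchymal cells moves with the mixture of clusters as well as with the level within them.

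The genes lie on 4 chromosomes of the mouse build mm10. In the GENCODE annotation of that build, C1ra lies at chr6:124512405-124523443 on the plus strand and C1s1 at chr6:124530345-124542359 on the minus strand, tail to tail with 6901 bases between their 3′ ends. C4b (chr17:34728380-34743882), Cfb (chr17:34856374-34862518) and C3 (chr17:57203970-57228136) lie on the minus strand of chromosome 17. C7 (chr15:4988762-5063740) and Serping1 (chr2:84765387-84775444) lie on the minus strand of chromosomes 15 and 2. All 7 are protein-coding. In RefSeq promoters of the build GRCm38.p6, 4 of the 7 genes had an entry. The 250 bases before the annotated start are shown for 3 genes with unlike patterns below: C3, highest in mesothelial and Pi16 adventitial cells, C1s1, highest in Pi16 adventitial cells, and C7, highest in alveolar fibroblasts. Capitals mark matches, on either strand, to motifs bound by factors that act downstream of interleukin-6 or interferon-gamma: GAS (TTCNNNGAA, for STAT factors) and C/EBP (TTGCNNAA). They lie at chr17:57228137-57228386, chr6:124542360-124542609 and chr15:5063774-5064023, each on the minus strand.
C3: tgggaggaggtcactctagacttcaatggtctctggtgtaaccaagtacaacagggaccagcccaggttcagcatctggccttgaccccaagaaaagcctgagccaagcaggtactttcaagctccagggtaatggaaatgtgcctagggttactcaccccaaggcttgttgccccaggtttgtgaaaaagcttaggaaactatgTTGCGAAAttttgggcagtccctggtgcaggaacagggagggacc
C1s1: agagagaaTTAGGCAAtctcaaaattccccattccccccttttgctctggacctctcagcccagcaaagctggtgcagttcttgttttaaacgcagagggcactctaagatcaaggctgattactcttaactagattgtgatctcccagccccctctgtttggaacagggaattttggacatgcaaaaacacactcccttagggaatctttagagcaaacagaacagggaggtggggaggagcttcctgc
C7: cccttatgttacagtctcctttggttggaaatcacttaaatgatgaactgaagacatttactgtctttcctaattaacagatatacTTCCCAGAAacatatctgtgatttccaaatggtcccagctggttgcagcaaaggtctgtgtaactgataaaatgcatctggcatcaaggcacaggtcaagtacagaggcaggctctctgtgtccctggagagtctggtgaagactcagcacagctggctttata

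The C3 window held 1 C/EBP match, 45 to 38 bases before the start, the C1s1 window 1 C/EBP match 242 to 235 bases before it, and the C7 window 1 GAS match 164 to 156 bases before it. RefSeq holds a second start of C1s1, whose window at chr6:124542322-124542571 has no match. The window of C1ra, the other gene with an entry, held no GAS or C/EBP match either and is not shown. The windows shown are thus those that held a match. These motifs are common: of 32851 promoter windows of the same length, 9.56% held the C/EBP letters and 7.02% the GAS letters. The letters of the interferon response element ISRE (GAAANNGAA, in 7.13% of windows) and of an NF-kB motif (GGANTTTCC, in 1.07%) were searched too and are not in the windows of C1ra, C1s1, C3 and C7. No matches overlapped. A match is a description of the letters only.

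C4b, C1ra and C1s1 each have a near-identical copy in the mouse genome. Of the 451 windows of 50 bases in the last 500 bases of the C4b transcript, 172 also occur in C4a, while 86 of 451 in C1ra occur in C1rb and 81 of 451 in C1s1 occur in C1s2. The copies were near 0 over all mesenchymal cells, with 0.491 CPM in bleomycin and 0.630 CPM in saline for C4a, 0.246 and 0.272 CPM for C1rb, and 0.683 and 0.306 CPM for C1s2. The sources used here do not say how reads shared by 2 copies were counted, so the levels of these 3 members are uncertain to that extent.

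C1ra and C1s1, the proteases of C1, were highest in the Pi16 adventitial cluster in both libraries. Adventitial fibroblasts lie around vessels and airways, but the clusters were named by markers and the position of these cells was not measured. C1ra stood there at 331 CPM in bleomycin [318 to 345] and 498 CPM in saline [471 to 527], and C1s1 at 710 CPM in bleomycin [691 to 730] and 892 CPM in saline [855 to 930]. The Adh7 adventitial cluster followed in saline for both genes, at 230 CPM in bleomycin and 388 CPM in saline for C1ra and at 464 and 694 CPM for C1s1. In bleomycin, the mesothelial cluster with 308 CPM of C1ra [282 to 335] did not differ from the Pi16 cluster beyond counting error. The inflammatory cluster held 217 CPM of C1ra in bleomycin and 299 CPM in saline, the Inmt cluster 231 and 257 CPM, and the Slc7a10 cluster 131 and 108 CPM. The fibrotic cluster of bleomycin was low, with 67.2 CPM of C1ra [64.8 to 69.7] and 145 CPM of C1s1 [142 to 149]. The cluster of epithelial genes was lowest, with 28.2 CPM of C1ra in bleomycin and 12.3 CPM in saline. Between the highest and the lowest cluster, C1ra levels thus differed 11.7-fold in bleomycin and 40.6-fold in saline. The lowest saline level rests on 8 UMIs [5.30 to 24.2], and the ranges cover 12 clusters in bleomycin and 10 in saline.

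The ratio of the 2 C1 proteases varied over the clusters with at least 50 cells in a library, between 0.989 and 2.88 UMIs of C1s1 per UMI of C1ra. The Inmt cluster held 1.72 in bleomycin [1.51 to 1.98] and 1.83 in saline [1.78 to 1.89], and the Pi16 cluster held 2.15 in bleomycin [2.04 to 2.26] and 1.79 in saline [1.67 to 1.92], intervals that do not overlap. The highest ratio was in the smooth muscle cluster, at 2.88 in bleomycin [2.55 to 3.25] and 2.43 in saline [1.97 to 3.02]. The lowest was in saline cells of the cluster with peribronchial and muscle genes, at 0.989 [0.732 to 1.34], against 1.51 in bleomycin cells of that cluster [1.29 to 1.78]. Because UMIs come from transcript ends and the genes differ in sequence, only the spread of this ratio over clusters can be read, not which gene has more transcripts. Over the 18 profiles, each a mesenchymal cluster in a library with at least 50 cells, C1ra and C1s1 correlated at r = 0.964 on the log2(CPM + 10) scale. These profiles share 2 libraries and are a description.

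C4b, the complement component cleaved by C1s, had its highest level outside the fibroblasts, in the mesothelial cluster, at 2234 CPM in bleomycin [2163 to 2307] and 2492 CPM in saline [2347 to 2644]. In the Pi16 cluster it stood at 914 CPM in bleomycin [891 to 936] and 1026 CPM in saline [986 to 1066], the highest fibroblast level of saline. It stood at 832 and 808 CPM in the Adh7 cluster and at 685 CPM in bleomycin and 787 CPM in saline in the inflammatory cluster. C4b separated the alveolar clusters from each other. The Inmt cluster held 924 CPM in bleomycin [875 to 974] and 736 CPM in saline [725 to 746], while the Slc7a10 cluster held 223 CPM in bleomycin [180 to 272] and 79.7 CPM in saline [75.3 to 84.3]. At an equal depth of 2000 UMIs per cell, 70.9% of bleomycin cells and 62.0% of saline cells of the Inmt cluster had a C4b UMI, against 31.5% of bleomycin cells and 9.65% of saline cells of the Slc7a10 cluster. The saline share in the Slc7a10 cluster [8.51% to 10.9%] barely overlaps that in saline cells of the epithelial cluster, where 3.03% had a C4b UMI [0.629% to 8.60%] at a median depth of 5658 UMIs against 5890 in the Slc7a10 cluster. The levels lay apart, at 79.7 CPM in the Slc7a10 cluster and 36.8 CPM [23.6 to 54.8] in the epithelial cluster of saline. Without thinning the shares were 87.0% in bleomycin and 83.0% in saline in the Inmt cluster, 53.9% and 22.4% in the Slc7a10 cluster, and 7.41% in saline cells of the epithelial cluster.

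C3, on which all branches converge, and Cfb, which encodes factor B of the alternative convertase, were likewise highest in mesothelial cells. C3 reached 6709 CPM in bleomycin [6586 to 6834] and 6295 CPM in saline [6063 to 6533] there, and Cfb 1194 CPM in bleomycin [1142 to 1247] and 731 CPM in saline [654 to 815]. The saline mesothelial cells numbered 42, and no comparison of the treatments was made in that cluster. Among fibroblasts the Pi16 cluster held most, with 2389 CPM of C3 in bleomycin [2353 to 2425] and 3706 CPM in saline [3631 to 3782], and with 397 CPM of Cfb in bleomycin [382 to 412] and 399 CPM in saline [375 to 425]. The interferon-induced cluster of saline, with 79 cells, held 3875 CPM of C3 [3738 to 4016], which overlaps the Pi16 cluster of saline, and 285 CPM of Cfb [249 to 325]. Its 45 bleomycin cells held 917 CPM of C3 and 203 CPM of Cfb. In the inflammatory cluster, C3 was at 1058 CPM in bleomycin [1049 to 1067] and 1987 CPM in saline [1912 to 2064]. In the fibrotic cluster of bleomycin it was at 312 CPM [307 to 318], and Cfb at 31.0 CPM [29.4 to 32.7]. C3 also varied between cells of a cluster: at 2000 UMIs per cell the median Pi16 cell had 4 C3 UMIs in bleomycin and 6 in saline, and the highest cell had 31 in bleomycin and 47 in saline.

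C7, a terminal component, had another distribution than the other 6 members. It was highest in the 2 alveolar clusters, at 611 CPM in bleomycin [539 to 690] and 433 CPM in saline [423 to 444] in the Slc7a10 cluster and at 473 CPM in bleomycin [438 to 509] and 430 CPM in saline [422 to 438] in the Inmt cluster. The saline levels of the 2 alveolar clusters did not differ beyond counting error. The inflammatory cluster held 208 CPM in bleomycin [204 to 212] and 199 CPM in saline [176 to 224]. The Pi16 cluster, which led for 4 other members among mesenchymal cells of both libraries, held 71.3 CPM of C7 in bleomycin [65.2 to 77.8] and 47.7 CPM in saline [39.5 to 57.1]. The fibrotic cluster of bleomycin held 11.6 CPM [10.6 to 12.7]. Bleomycin mesothelial cells had 1.79 CPM [0.368 to 5.22], and at 2000 UMIs 0 of 115 such cells had a C7 UMI, which allows a share of up to 2.61%, while 2.59% had one without thinning. Over the 18 profiles C7 correlated with the other members at r between 0.263 for C4b and 0.623 for Serping1, while the other 6 correlated with each other at r between 0.679 and 0.964.

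Serping1, the gene of C1 inhibitor, had the narrowest range over clusters with at least 50 cells in bleomycin, but not in saline. Its highest level was in the Pi16 cluster, with 2024 CPM in bleomycin [1991 to 2057] and 2887 CPM in saline [2821 to 2955], and its lowest in the cluster of epithelial genes, with 218 CPM in bleomycin and 93.6 CPM in saline. In bleomycin these levels lay 9.27-fold apart, where C7 ranged 342-fold, its lowest level resting on 3 UMIs in mesothelial cells. In saline Serping1 ranged 30.8-fold, and C7 and C4b ranged less, at 20.8-fold and 27.8-fold. The saline ranges leave out the 42 mesothelial cells, which held the highest C4b level of saline, at 2492 CPM. With them C4b would range more widely, so the ranges of the 2 libraries cover unlike sets of clusters. The Slc7a10 cluster, low in C4b and Cfb, held 1405 CPM of Serping1 in bleomycin and 1049 CPM in saline. The fibrotic cluster of bleomycin held 730 CPM [722 to 738], and 66.9% of its cells had a Serping1 UMI at 2000 UMIs per cell, against 14.0% of the bleomycin cells of the epithelial cluster. Unthinned, these shares were 93.7% and 22.3%, at median depths of 14262 and 7361 UMIs.

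**Figure D1:**
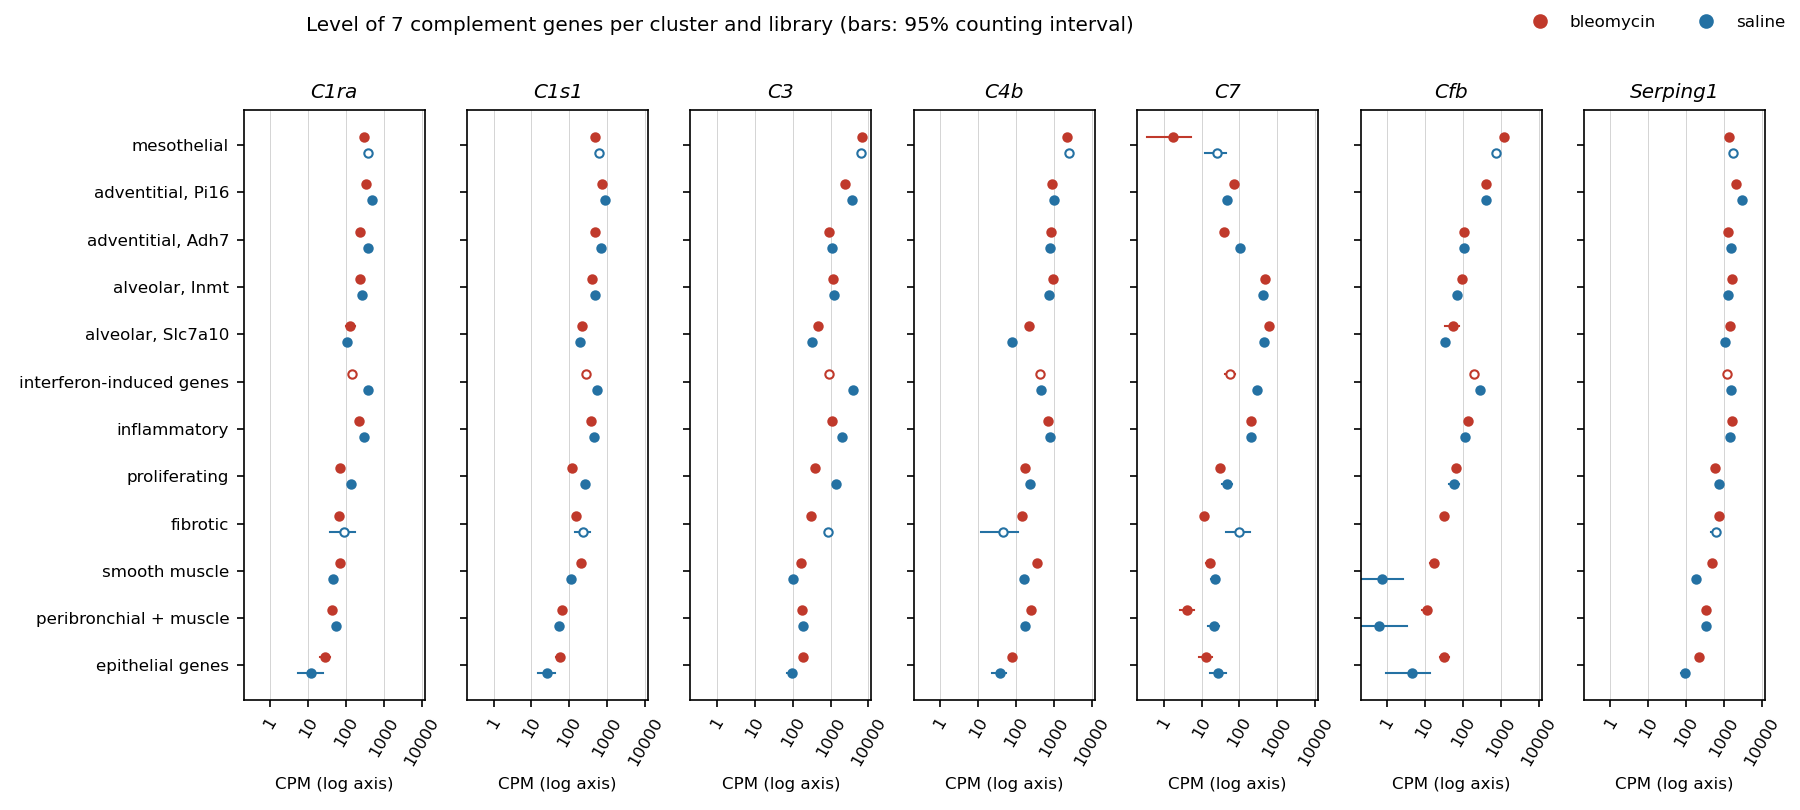
Level of each complement gene in CPM on a log axis, by cluster (rows) and library, with bleomycin in red above saline in blue. Horizontal lines are 95% counting intervals, open points rest on fewer than 50 cells, and points with 0 UMIs are not drawn. C3, C4b and Cfb peak in the mesothelial row at 6709, 2234 and 1194 CPM in bleomycin, while C7 peaks in the 2 alveolar rows at 611 and 473 CPM in bleomycin.

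Members were not confined to fibroblasts, and not every fibroblast cluster was high in each of them. In the fibrotic fibroblast cluster of bleomycin, Cfb at 31.0 CPM [29.4 to 32.7] and C7 at 11.6 CPM [10.6 to 12.7] did not differ beyond counting error from the cluster of epithelial genes, at 32.6 CPM [24.9 to 42.0] and 13.0 CPM [8.35 to 19.4]. Clusters not named as fibroblasts held members too, among them the unnamed one with peribronchial and muscle genes, which may include fibroblasts. C4b stood in smooth muscle at 351 CPM in bleomycin and 165 CPM in saline and in the cluster with peribronchial and muscle genes at 244 and 177 CPM, above 146 CPM in the fibrotic cluster of bleomycin and 79.7 CPM in the Slc7a10 cluster of saline. Mesothelial cells had higher levels of C3, C4b and Cfb than any fibroblast cluster of the same library. Genes of the first complement component that are made elsewhere marked the contrast: C1qa, which with C1qb and C1qc encodes the part of C1 that recognises its target and is made by macrophages, had 1.02 CPM in bleomycin and 0.766 CPM in saline over mesenchymal cells, and 290 CPM in the bleomycin cells of the immunoglobulin and macrophage cluster.

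Most complement UMIs of the bleomycin library came from the inflammatory cluster and most of the saline library from alveolar fibroblasts. The inflammatory cluster held 37.1% of all mesenchymal UMIs in bleomycin, and between 50.7% of the UMIs of C1s1 and 78.8% of those of C7. In saline it held 2.27% of all UMIs and between 1.38% for C7 and 4.26% for C3. The fibrotic cluster, with 33.3% of all mesenchymal UMIs in bleomycin, held between 3.96% for C7 and 21.9% for Serping1. The 2 alveolar clusters held 1.45% of all mesenchymal UMIs in bleomycin and 69.4% in saline. For C7 they held 7.48% of its UMIs in bleomycin and 91.8% in saline, above their share of all UMIs in both libraries. For every other member their saline share was below their share of all UMIs, between 50.8% for Cfb and 66.8% for Serping1. The 2 adventitial clusters held 8.79% of all mesenchymal UMIs in bleomycin and 17.8% in saline, but 26.0% of the Cfb UMIs in bleomycin and 39.9% in saline.

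**Figure D2:**
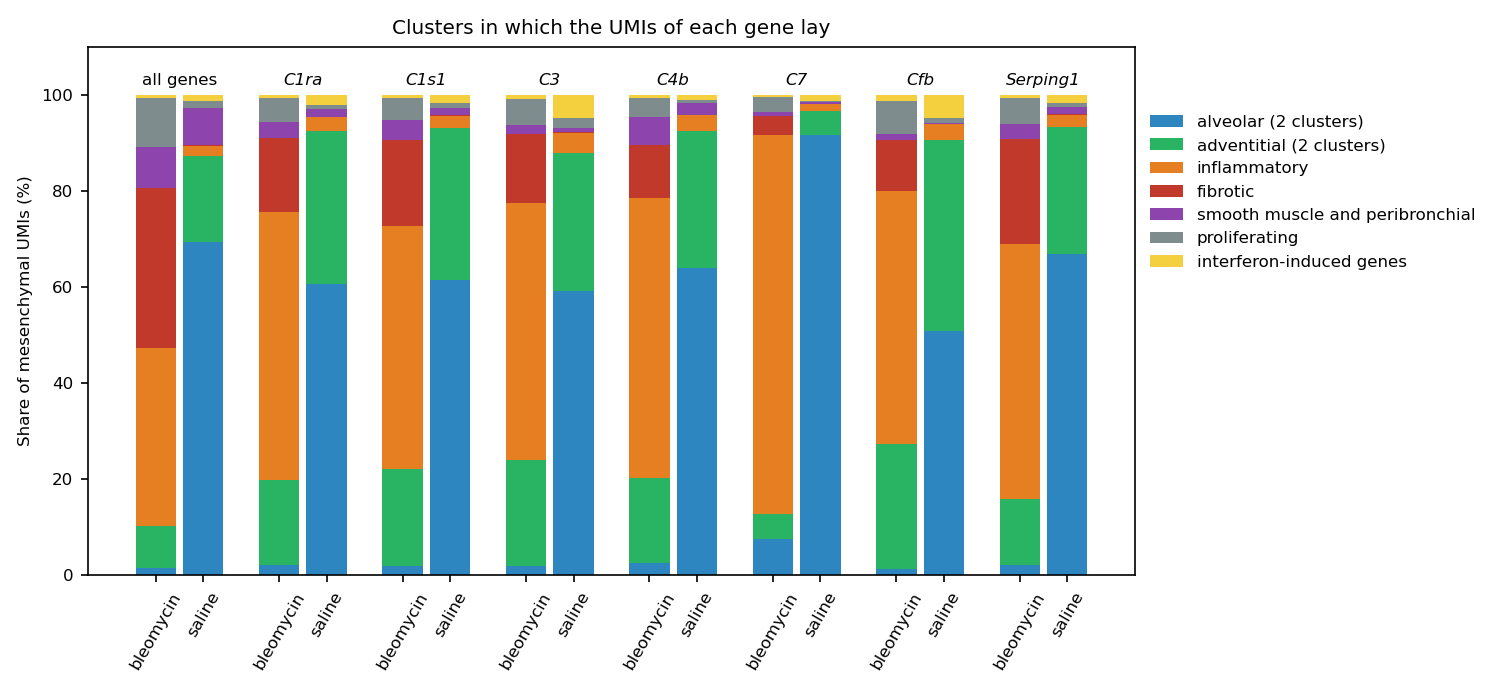
Share of the mesenchymal UMIs of each gene, in percent, that lay in each group of clusters, with the bleomycin bar left of the saline bar. The first pair of bars gives the same for all genes together. The inflammatory part (orange) makes up 78.8% of the C7 bar in bleomycin and 1.38% in saline, where the alveolar part (blue) makes up 91.8%.

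Over all mesenchymal cells, C7 was the 1 member of 7 that met the size rule, and it was lower in bleomycin. Of 8018 genes measured there, 5.92% were lower and 5.56% were higher in bleomycin by the same rule, so the count of members lies near the background. C7 stood at 97.7 CPM in bleomycin [96.0 to 99.4] and 326 CPM in saline [321 to 331], a ratio of 0.300 [0.293 to 0.306]. C1ra was at 145 CPM in bleomycin and 232 CPM in saline (ratio 0.624), C1s1 at 269 and 417 CPM (0.646), and C3 at 731 and 1058 CPM (0.691). C4b was at 436 CPM in bleomycin and 535 CPM in saline (0.815), and Serping1 at 1109 and 1233 CPM (0.899). Cfb was the 1 member with a higher level in bleomycin, at 96.6 CPM against 78.7 CPM in saline (ratio 1.23). The median log2 ratio was -0.53 over the 7 members and -0.04 over all genes measured.

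These overall ratios moved with the mixture of clusters, and for C7, C4b and Serping1 the direction turned. When the bleomycin level of each cluster was weighted by the saline share of that cluster, C7 came to 379 CPM in bleomycin against 326 CPM in saline, a ratio of 1.16. C4b came to 660 CPM in bleomycin against 535 CPM in saline (1.23), Serping1 to 1409 against 1233 CPM (1.14) and Cfb to 95.4 against 78.7 CPM (1.21). C1ra, C1s1 and C3 stayed below the saline level, at ratios of 0.831, 0.838 and 0.857. Fewer cells of a type and a lower level per cell cannot be told apart in the overall values, and in the weighted ones the bleomycin level of an alveolar cluster rests on 76 or 208 cells. The same holds on a smaller scale for the 2 adventitial clusters as one class, where C3 had a ratio of 1.07 [1.05 to 1.09] and Cfb one of 1.62 [1.53 to 1.72], while in the Pi16 and Adh7 clusters apart C3 was at 0.645 and 0.847 and Cfb at 0.994 and 1.02. The Pi16 cluster held 703 bleomycin and 459 saline cells and the Adh7 cluster 430 and 998.

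Within the 8 mesenchymal clusters that had at least 50 cells of each library, the members split. For C1ra the ratio was below 1 in 6 of 8 clusters, with the interval clear of 1 in 4, and for C1s1 in 5 of 8, all with intervals clear of 1. For C3 it was below 1 in 6 of 8, with 5 intervals clear of 1. Cfb was above 1 in 7 of 8 clusters, with the interval clear of 1 in 5. C4b was above 1 in 5 and below 1 in 3, and C7 and Serping1 divided evenly, with 4 clusters each way. Intervals rest on pooled UMIs of many cells and leave out any spread between mice.

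In the 2 adventitial clusters the C1 proteases were lower in bleomycin. In the Pi16 cluster the ratio was 0.664 [0.620 to 0.712] for C1ra, 0.797 [0.758 to 0.838] for C1s1, 0.645 [0.628 to 0.661] for C3 and 0.701 [0.681 to 0.721] for Serping1, while Cfb was at 0.994 [0.924 to 1.07]. In the Adh7 cluster it was 0.593 [0.552 to 0.637] for C1ra and 0.668 [0.635 to 0.703] for C1s1. None of the 7 met the size rule in the Pi16 cluster, where 4.34% of genes were higher and 3.92% lower. In the Adh7 cluster C7 did, with 38.9 CPM in bleomycin [33.3 to 45.2] and 102 CPM in saline [95.6 to 110], a ratio of 0.380, and 3.27% of genes there were lower and 2.8% higher by the rule. C7 ran the other way in the Pi16 cluster, with a ratio of 1.495 [1.22 to 1.84].

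In the alveolar clusters C4b was higher in bleomycin. In the Slc7a10 cluster it stood at 223 CPM in bleomycin, from 95 UMIs, and at 79.7 CPM in saline, a ratio of 2.79 [2.24 to 3.44], where 2.9% of genes were higher and 1.66% lower by the size rule. C3 there had a ratio of 1.48 [1.28 to 1.71], C7 1.41 [1.24 to 1.60] and Serping1 1.34 [1.23 to 1.45]. In the Inmt cluster, where 0.996% of genes were higher and 1.31% lower, no member met the rule: C4b had a ratio of 1.26 [1.19 to 1.33], Serping1 1.26 [1.204 to 1.31] and Cfb 1.34 [1.12 to 1.59]. In the inflammatory cluster, where 2.89% of genes were higher and 1.92% lower, no member met the rule either. C3 came closest there, with a ratio of 0.532 [0.512 to 0.554], and C7 was at 1.04 [0.924 to 1.18]. The 111 saline cells of that cluster are few beside 3741 bleomycin cells, and a different makeup within the cluster was not tested.

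In the proliferating cluster C3 stood at 385 CPM in bleomycin [375 to 396] and 1399 CPM in saline [1320 to 1481], a ratio of 0.275, and C1s1 at 121 CPM in bleomycin [115 to 127] and 256 CPM in saline [223 to 293], a ratio of 0.470. Both met the size rule, as did 8.21% of genes in the lower and 3.79% in the higher direction there. The saline level rests on 52 cells. C1ra had a ratio of 0.518 [0.427 to 0.633], just outside the rule, and once the cells in the top 5% of doublet scores were left out it met it, at 0.478.

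**Figure D3:**
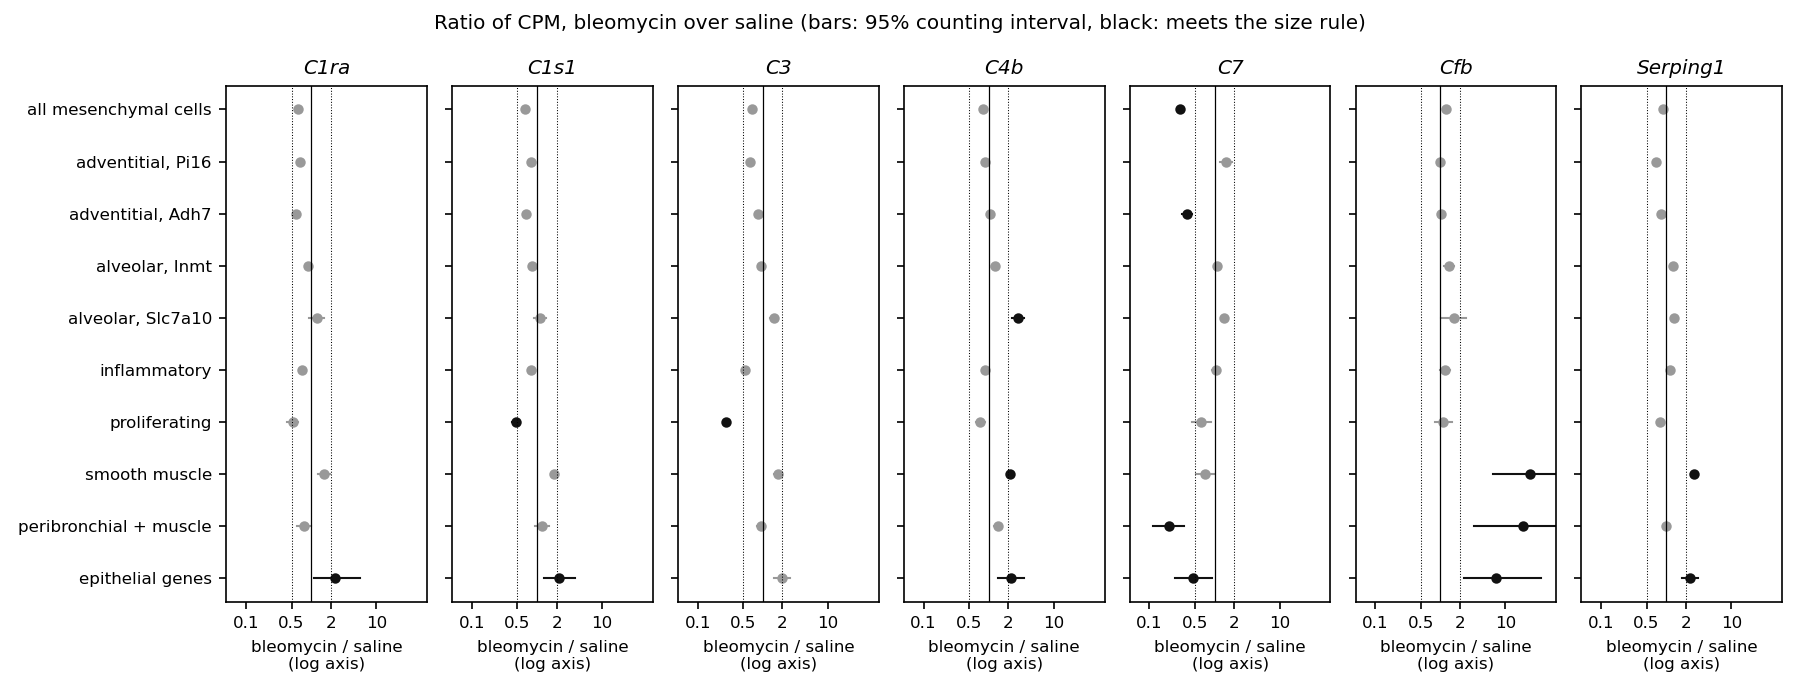
Ratio of CPM, bleomycin over saline, on a log axis, for each gene (panels) in all mesenchymal cells and in each cluster with at least 50 cells of each library. Lines are 95% counting intervals, cropped at the panel edge, dotted lines mark 2-fold, and black points met the size rule. C7 is at 0.300 over all mesenchymal cells and to the right of 1 in both alveolar rows, at 1.41 and 1.10.

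In the smooth muscle cluster 3 of 7 members were higher in bleomycin by the size rule, where 4.54% of 7999 genes were higher and 2.46% lower. Serping1 stood at 468 CPM in bleomycin [450 to 487] and 176 CPM in saline [161 to 193], a ratio of 2.65, and C4b at 351 CPM in bleomycin [335 to 367] and 165 CPM in saline [150 to 181], a ratio of 2.13. C1s1 came close, with 201 CPM in bleomycin [189 to 214] and 109 CPM in saline [97.1 to 122], a ratio of 1.85. Cfb had 89 UMIs in bleomycin and 2 in saline, a ratio of 23.7 [6.37 to 199]. C3 was at 170 CPM in bleomycin and 100 CPM in saline (ratio 1.69).

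These members did not share 1 footing in smooth muscle cells. At 2000 UMIs per cell, 46.0% of bleomycin cells [41.7% to 50.4%] and 23.9% of saline cells [19.5% to 28.7%] had a Serping1 UMI, 43.3% of bleomycin cells and 23.6% of saline cells a C4b UMI, and 32.1% of bleomycin cells and 17.6% of saline cells a C1s1 UMI. In the cluster of epithelial genes these shares were 14.0% in bleomycin and 8.08% in saline for Serping1, 7.01% and 3.03% for C4b, and 5.10% and 4.04% for C1s1. Cfb was found in 2.29% of bleomycin cells and in 0 of 352 saline cells, which allows up to 0.852%, and C3 in 11.5% of bleomycin cells and 9.38% of saline cells. In the epithelial cluster Cfb was found in 5.10% of bleomycin cells and C3 in 12.7% of bleomycin cells and 8.08% of saline cells, so the shares of Cfb and C3 in smooth muscle cells of bleomycin did not exceed those of the epithelial cluster. The median depth was 8188 UMIs in bleomycin and 7281 in saline for the smooth muscle cells and 7361 and 5658 for the epithelial cluster. Without thinning, a Serping1 UMI was found in 81.8% of bleomycin and 51.4% of saline smooth muscle cells, against 22.3% and 18.5% of the epithelial cluster, and a Cfb UMI in 8.44% and 0.559%, against 9.57% and 2.78%. For C3 the unthinned shares were 24.4% in bleomycin and 15.6% in saline, against 27.7% and 16.7% of the epithelial cluster.

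Cells with high doublet scores carried much of the C3 and Cfb of this cluster. The scores were computed with the complement genes included, so these UMIs themselves could raise a score. Doublet calling also did not work on the bleomycin library. Leaving out the top 5% of scores per library removed 70 of 533 bleomycin and 17 of 358 saline smooth muscle cells. C3 then had 235 UMIs in bleomycin and 158 in saline, against 888 and 280 with all cells, and came to 57.3 CPM in bleomycin and 60.2 CPM in saline, a ratio of 0.952 [0.775 to 1.17]. Cfb came to 22 UMIs, or 5.36 CPM, in bleomycin and 1 UMI in saline, and no longer reached 10 CPM. Serping1 still met the size rule at 2.34 [2.10 to 2.63], and C4b came just short of it at 1.91 [1.71 to 2.14]. C7 came to 3.66 CPM in bleomycin and 16.8 CPM in saline, a ratio of 0.218. Markers of other classes were present too: the 11 inflammatory fibroblast markers summed to 1575 CPM in bleomycin and 1178 CPM in saline smooth muscle cells, with 9 at 10 CPM or more and 0 at 0 in bleomycin and 6 and 1 in saline, and to 1004 CPM in bleomycin and 1098 CPM in saline without the high scores. The 12 alveolar fibroblast markers summed to 1652 CPM in bleomycin and 1950 CPM in saline, and the 10 smooth muscle markers to 29523 CPM in bleomycin and 49263 CPM in saline. The part of these markers in the complement levels was not tested.

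**Figure D4:**
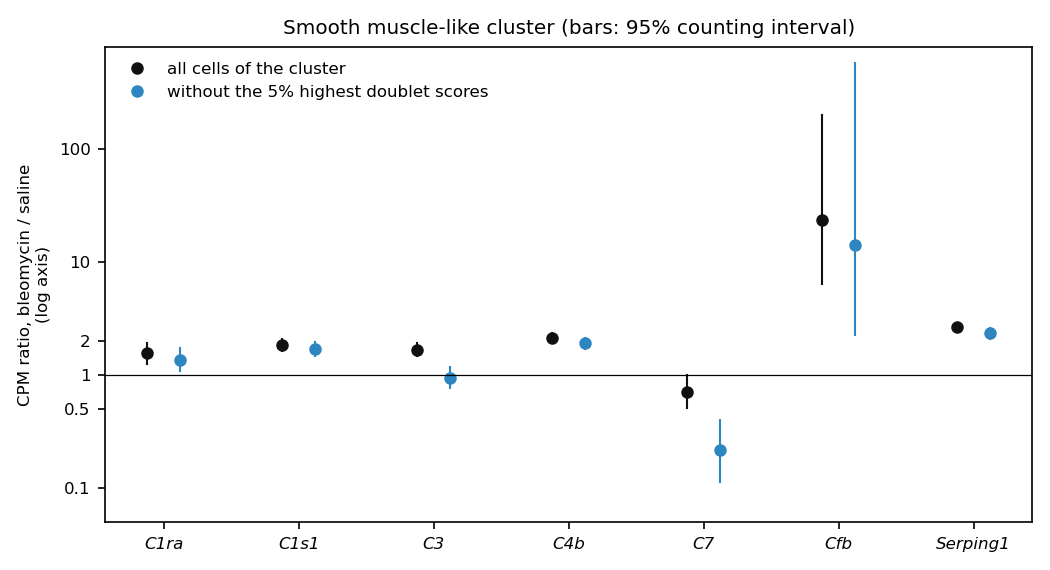
Ratio of CPM, bleomycin over saline, on a log axis in the smooth muscle-like cluster, for all cells (black) and with the top 5% of doublet scores per library left out (blue). Lines are 95% counting intervals. C3 lies at 1.69 with all cells and at 0.952 without those cells, while Serping1 stays above 2, at 2.65 and 2.34.

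The cluster with peribronchial and muscle genes showed the same dependence for Cfb, with 65 UMIs in bleomycin and 1 in saline over all cells, a ratio of 18.7 [3.24 to 750], but 16 and 0 UMIs without the highest doublet scores. C7 was lower in bleomycin there, with 24 UMIs in bleomycin and 35 in saline, at 4.12 and 20.9 CPM (ratio 0.197), and with 0 and 29 UMIs without the highest doublet scores. By the size rule 6.46% of genes were higher in that cluster and 6.6% lower.

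In the cluster of epithelial genes 5 of 7 members were higher in bleomycin by the size rule, against 11.1% of all genes measured, and C7 was lower, as were 6.09% of genes. The ratio was 2.30 for C1ra, 2.14 for C1s1, 2.18 for C4b, 2.33 for Serping1 and 7.08 [2.31 to 35.3] for Cfb, the last from 60 UMIs in bleomycin and 3 in saline. Without the highest doublet scores C1s1, C4b and Serping1 no longer met the rule, at 1.84, 1.52 and 1.91. The 11 inflammatory fibroblast markers summed to 3253 CPM in bleomycin and 812 CPM in saline in this cluster, with 10 at 10 CPM or more in bleomycin and 7 in saline and none at 0 in either. Whether the complement UMIs came from these cells, from mixed cells or from free RNA was not tested.

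Single cells often held several of the genes. At 2000 UMIs per cell, 16.8% of bleomycin and 21.5% of saline mesenchymal cells had UMIs of at least 5 of the 7 genes. In the Pi16 cluster this share was 49.9% in bleomycin [46.0% to 53.9%] and 53.0% in saline [48.0% to 58.0%], and in the mesothelial cluster 66.1% in bleomycin [56.7% to 74.7%] and 61.5% in saline [44.6% to 76.6%]. The Inmt cluster stood at 37.4% in bleomycin and 32.5% in saline, the inflammatory cluster at 26.8% and 41.4%, and the Adh7 cluster at 19.0% and 31.9%. The Slc7a10 cluster was far below the Inmt cluster, at 13.7% in bleomycin [6.77% to 23.8%] and 3.71% in saline [2.99% to 4.53%]. In the fibrotic cluster of bleomycin 2.08% of cells [1.58% to 2.70%] had at least 5 of the genes and 19.7% had none. Of the epithelial cluster 1.91% had at least 5 in bleomycin and 0 of 99 cells in saline, which allows up to 3.03%. Without thinning the shares with at least 5 genes were 62.2% in bleomycin and 59.2% in saline over all mesenchymal cells, the other order than at equal depth. Unthinned they were 84.1% and 72.5% in the Pi16 cluster, 35.7% in the fibrotic cluster of bleomycin, and 10.1% in bleomycin and 3.70% in saline in the epithelial cluster. Within Pi16 cells of bleomycin, 53.1% of cells with a C3 UMI also had a Cfb UMI, against 24.6% of those without one. For C3 and C7 the picture differed by cluster: in Inmt cells of saline 53.2% of cells with C3 and 53.1% of cells without it had C7. In bleomycin the shares were 3.74% and 1.63% in fibrotic cells and 8.26% and 1.22% in proliferating cells, with intervals apart. In every other cluster compared the intervals overlapped. C7 was low in the fibrotic and proliferating cells of bleomycin, at 11.6 and 30.3 CPM, and doublets stay in that library.

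**Figure D5:**
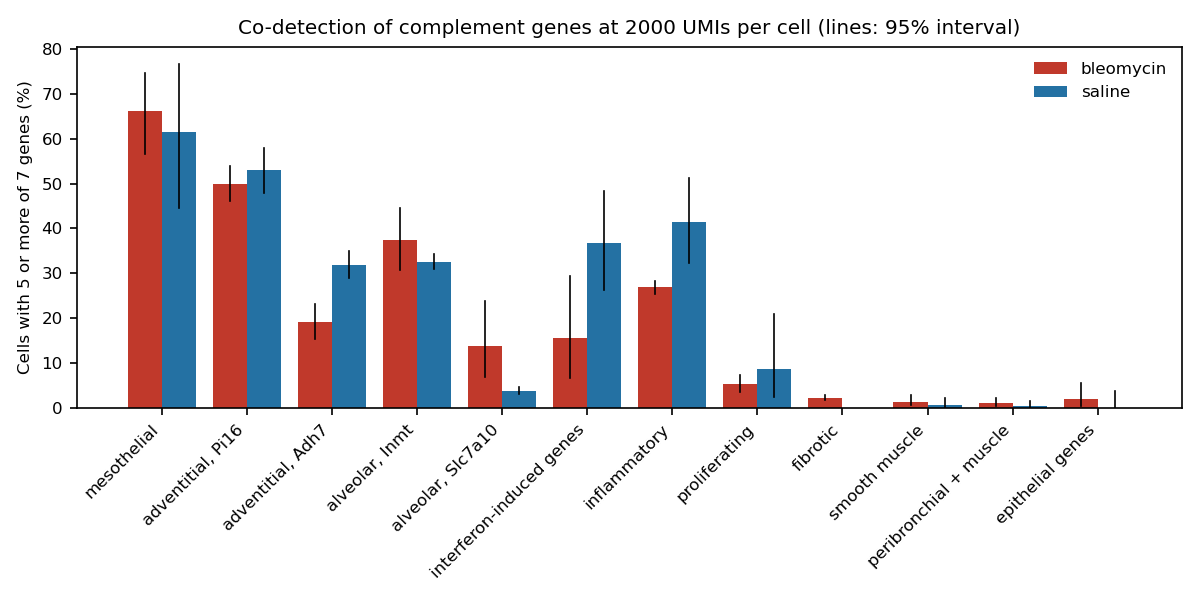
Share of cells, in percent, with UMIs of at least 5 of the 7 complement genes after each cell was thinned to 2000 UMIs, by cluster, with bleomycin left of saline. Vertical lines are exact 95% intervals, and groups with fewer than 20 cells are not drawn. Mesothelial and Pi16 adventitial cells lead at 66.1% and 49.9% in bleomycin, and the fibrotic cluster stands at 2.08%.

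Beyond the 7 members, 50 further complement genes were looked up, listed by pathway with earlier results of these data known. Over all mesenchymal cells 10 of them reached 10 CPM in either library, 2 were higher in bleomycin by the size rule, 0 were lower, and the other 8 met it in neither direction, with a median log2 ratio of -0.39. Over all 8018 genes measured 5.56% were higher and 5.92% lower. Clu, which encodes clusterin, an inhibitor of the membrane attack complex, stood at 80.6 CPM in bleomycin and 38.3 CPM in saline, a ratio of 2.11, and was highest among mesenchymal cells in smooth muscle, at 877 CPM in bleomycin and 375 CPM in saline. Csmd1, a membrane protein that restrains complement, stood at 18.5 CPM in bleomycin and 4.49 CPM in saline (ratio 4.13). C6, the terminal component that precedes C7 in the attack complex, was at 17.7 CPM in bleomycin and 8.88 CPM in saline, a ratio of 1.99, and at 39.1 CPM in bleomycin and 7.51 CPM in saline in the inflammatory cluster, a ratio of 5.21 [2.83 to 10.9] from 1890 UMIs in bleomycin and 10 in saline. C2, the partner of C4 in the classical convertase, was at 46.2 CPM in bleomycin and 71.2 CPM in saline (0.648). Cfi, which encodes the protease factor I, stood at 2.82 CPM in bleomycin and 0.408 CPM in saline, below the minimum, and at 10.3 CPM in bleomycin and 1.20 CPM in saline, from 3 UMIs, in the Pi16 cluster. C1rl, a relative of C1r, stood at 7.45 CPM in bleomycin and 8.15 CPM in saline and at 46.4 CPM in mesothelial cells of bleomycin.

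Among surface proteins, Colec12, a scavenger receptor with a collectin domain, stood at 352 CPM in bleomycin and 511 CPM in saline (ratio 0.689), Cd59a, which blocks the attack complex, at 74.7 and 107 CPM (0.697), and Cd59b, its second copy, at 12.5 and 17.4 CPM (0.717). Cr1l, the rodent regulator Crry, stood at 41.1 CPM in bleomycin and 50.5 CPM in saline (0.814), and Cd55, which dismantles convertases, at 25.2 and 29.2 CPM (0.862). None of the 8 receptor genes reached 10 CPM. Other parts of the pathway were at or near 0 in mesenchymal cells: Cfd, the gene of factor D, had 1 UMI in bleomycin and 2 in saline, C9 had 2 and 1, and Hc, the gene of C5, had 16 and 12, with 111 CPM of Hc in saline cells of the epithelial cluster.

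Genes of the cytokine pathways known to act on complement genes were looked up over all mesenchymal cells. Of 14 cytokine receptors and transcription factors 0 were higher and 4 were lower, where 5.56% of all genes measured were higher and 5.92% lower. Il6ra, an interleukin-6 receptor chain, stood at 10.9 CPM in bleomycin and 39.7 CPM in saline (ratio 0.274), Irf1, an interferon-regulated factor, at 137 and 380 CPM (0.361), Cebpd, a C/EBP factor, at 1352 and 2876 CPM (0.470), and Ifngr1, an interferon-gamma receptor chain, at 126 and 260 CPM (0.483). Of 12 interferon-induced genes 0 were higher and 7 were lower, among them Gbp5 with 4.18 CPM in bleomycin and 26.4 CPM in saline (ratio 0.159), Irgm1 with 7.64 and 31.7 CPM (0.241), Gbp2 with 29.3 and 114 CPM (0.256) and Psmb9 with 20.5 and 53.8 CPM (0.382). Gbp7, Iigp1 and Gbp3 had ratios of 0.435, 0.444 and 0.481. The median log2 ratio was -0.34 over the first list and -1.11 over the second, against -0.04 over all genes, and these values too move with the mixture of clusters. In the alveolar clusters none of Cebpd, Il6ra, Irf1 and Ifngr1 met the rule. Cebpd had ratios of 1.66 [1.59 to 1.73] in the Slc7a10 and 1.18 [1.15 to 1.22] in the Inmt cluster, Il6ra 1.21 and 1.15, Irf1 1.14 and 0.849, and Ifngr1 0.901 and 0.894. Elsewhere Il6ra was lower by the rule, at 0.40 in the Pi16, 0.427 in the peribronchial and muscle and 0.320 in the proliferating cluster. Of all genes 3.92%, 6.6% and 8.21% were lower there. In the Adh7, inflammatory and smooth muscle clusters Il6ra had ratios of 0.509, 0.548 and 0.669, outside the rule.

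The genes with the most similar patterns were sought among 8001 other genes over the 18 profiles, on the log2(CPM + 10) scale. C1ra was nearest to Fmo1 (r = 0.963), Steap4 (0.940) and Sult5a1 (0.921), and the genes near C1s1 included Fmo1 (0.927) and Egr2 (0.914). C3 was nearest to Ly6e (0.947), Steap4 (0.921) and Ifi205 (0.901), and Cfb to Ly6e (0.936), Prickle1 (0.910) and Tiam1 (0.909). C4b was nearest to Il6 (0.876), Gas6 (0.875) and Gpld1 (0.859). C7 was nearest to Rras2 (0.963), Dlc1 (0.945) and Hsd11b1 (0.945), and Serping1 to Sult5a1 (0.958), Rnase4 (0.955) and Gpc3 (0.944). These are descriptions over profiles that share 2 libraries.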

How the data were processed

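Raw UMI counts per gene and cell, as the authors deposited them, came from the 3′ kit of 10x Genomics per the labels' protocols and were made with Cell Ranger 6.1.2 on mm10 per the submitters' processing notes. Cells with at least 500 genes and at most 10% mitochondrial UMIs were kept (10001 bleomycin and 8350 saline cells). Scrublet at an expected rate of 7% marked 2 bleomycin cells (0.0200%) and 81 saline cells (0.970%), which were left out. It did not work on the bleomycin library, so doublets stay in it. Both libraries were clustered together without integration and without any of the 57 complement genes with igraph 0.11.9, scanpy 1.11.5 and scikit-learn 1.9.0, at 2000 variable genes, 30 components, 15 neighbours and a Leiden resolution of 0.5. Names came from 19 marker lists: at least 3 markers raised 1.5-fold, a median log2 fold of at least 0.5 and at least a share of 0.5 of the list at 10 CPM. A cluster whose leading genes went against its name stayed unnamed.

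UMIs were summed per cluster and library and divided by their total to give CPM. Poisson intervals of CPM, conditional binomial intervals of ratios and Clopper-Pearson intervals of shares are exact at 95% and cover counting error only. For shares each cell was thinned to 2000 UMIs, leaving out 153 bleomycin and 144 saline mesenchymal cells below that. In the Pi16 cluster this left 645 of 703 bleomycin and 396 of 459 saline cells, so its shares describe the deeper cells. The limit for a count of 0 is 3 counts. The size rule was tested on simulated counts with counting error only, which hold no spread between mice and no change in the mixture of clusters. The members and gene lists were chosen with earlier results of these data known. Named by rule were the 7 members, other complement genes with at least 10 CPM in a mesenchymal cluster, the 3 genes most like each member, the 3 leading genes of a cluster, and listed cytokine and interferon genes that met the size rule. Of the genes named by this rule, 2 are not reported here. Near-absent genes and the values of copies were added to show gaps. The alternatives were a stricter cell filter, no high doublet scores, resolution 1, complement genes kept in the clustering, edgeR 4.0.16 TMM scaling, equal weight per cell, the saline mixture of clusters, 4000 UMIs, and no minimum level.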

Additional observations from a re-analysis of the deposited data

Results flagged for a closer look

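C1s1 was higher in bleomycin in the cluster of epithelial genes, with a ratio of 2.14, and lower in bleomycin in the proliferating cluster, with a ratio of 0.470, both by the size rule. It is listed because the 2 clusters moved in opposite directions. With 1 library per treatment the difference was not tested. With the top 5% of doublet scores left out the ratios were 1.84 and 0.424, so the epithelial one no longer met the rule.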

How the results depend on the processing

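The ratio of C7 over all mesenchymal cells was below 1 under every scaling, filter and clustering tried, except at the saline mixture of clusters, where it reversed to 1.16, and it was 0.312 without the highest doublet scores. At the saline mixture the other ratios were 0.831 for C1ra, 0.838 for C1s1, 0.857 for C3, 1.23 for C4b and 1.14 for Serping1, and 83 genes were higher and 52 lower. With TMM scaling, which shifted all log2 ratios by 0.09, they were 0.665 for C1ra, 0.689 for C1s1, 0.737 for C3, 0.869 for C4b, 0.319 for C7, 1.31 for Cfb and 0.959 for Serping1. With equal weight per cell they were 0.755, 0.787, 0.852, 1.04, 0.392, 1.40 and 0.983 in that order. With no minimum level 1760 genes were higher and 1902 lower, against 446 and 475, and 7 other complement genes were higher, since low genes with few UMIs then count. Under the stricter cell filter the 7 ratios and both counts of genes moved by less than these limits: the counting interval for a ratio and 1.5 times for a count.

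Within classes, C3 and C7 of smooth muscle moved to ratios of 0.762 and 0.140 when cells were clustered again without the highest doublet scores, where C4b stood at 1.96. That setting gave no ratio for Cfb in the cluster of peribronchial and muscle genes, which had 0 saline UMIs. With complement genes kept in the clustering, C3 of alveolar fibroblasts went to 0.838 against 1.11. The cause was not tested. The same clusters without those cells were an alternative chosen after seeing the data, and left C7 in the cluster of peribronchial and muscle genes with 0 UMIs in bleomycin, where the ratio over all cells was 0.197. No paired analysis was possible because each group has 1 library.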
